A study of Mus musculus with 8 samples.

Results

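The genes of the NMDA receptor subunits were examined in the mouse ventral pallidum (VP), in a pulled-down fraction labelled as glutamatergic neurons and in its input. The 6 genes were chosen by name: Grin1, Grin2a, Grin2b, Grin2c, Grin2d and Grin3a. Of these, 5 had a row among the 14353 genes of the expression table. Grin2c had none and was not analysed here.

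The mice carried VGluT2-Cre on both alleles and Rpl22 (the RiboTag allele) on 1 allele, in both fractions alike, and were untreated. Cre driven by the vesicular glutamate transporter vGluT2 puts an HA tag on the ribosomal protein Rpl22, so that ribosomes of Cre-expressing neurons can be pulled down with their RNA by translating ribosome affinity purification (TRAP). The VP of 38 mice (15 males and 23 females) was pooled into 4 pools. Pool VP1.6 held 3 males and 4 females aged 9 to 12 weeks, and the other pools were aged 10 to 16 weeks, with 4 males each and with 6 females in VP2.2 and in VP2.11 and 7 in VP2.6. Each pool gave 1 TRAP library, labelled as glutamatergic neurons, and 1 INPUT library from the same homogenate, labelled as all neurons and glia (n = 4 per fraction). The labels were followed here. The study's methods also describe an input fraction, set aside before the pulldown, and a test of TRAP against it. Their sentence on sequencing instead calls the second fraction unbound, and this mismatch is not settled here. The methods also give other numbers of samples and mice and another age range than the labels. A pool mixes animals and sexes, so the spread given below is between pools and not between mice. The VP borders the striatum, and the study's methods name striatal tissue as a possible admixture of the dissections, though not of the TRAP fraction, since they hold that those areas lack vGluT2.

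NMDA receptors are glutamate-gated cation channels built from a pair of GluN1 subunits, encoded by Grin1, and a pair of GluN2 subunits (Grin2a to Grin2d) or GluN3 subunits (Grin3a, Grin3b). GluN1 binds glycine or D-serine and is required for every receptor, while GluN2 binds glutamate and sets the speed of closing and the strength of the block by extracellular magnesium. GluN2B receptors close more slowly than GluN2A receptors, GluN2D receptors close slowest and are less blocked by magnesium, and GluN3A lowers calcium entry and the magnesium block.

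A part of the coding sequence tied to the magnesium block is shown for 1 gene each of the GluN1, GluN2 and GluN3 groups. Each run of 69 bases was read from GENCODE M21 transcripts of the mouse genome build GRCm38 in the direction of the coding strand, which is the minus strand for all 3 genes. It starts 3 codons before the pore-loop codon. The capitals mark this codon, at which an asparagine contributes to the magnesium block, and a second codon 18 codons further on.
Grin1 (chr2:25297256-25297397, exons 14 and 15 with the intron between them): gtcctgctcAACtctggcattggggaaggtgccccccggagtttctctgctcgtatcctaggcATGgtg
Grin2a (chr16:9653504-9653572, exon 10): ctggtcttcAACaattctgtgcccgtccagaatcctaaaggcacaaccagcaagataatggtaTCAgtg
Grin3a (chr4:49770527-49770595, exon 3): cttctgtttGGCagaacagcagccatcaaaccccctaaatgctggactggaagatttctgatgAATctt

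The pore-loop codon was AAC in Grin1 and Grin2a and GGC in Grin3a. The second codon was ATG in Grin1, TCA in Grin2a and AAT in Grin3a. Over the 69 bases, Grin1 shared 30.4% of bases with Grin2a and 31.9% with Grin3a, and Grin2a shared 44.9% with Grin3a. The second codon and the shared bases of Grin2a are not those of every GluN2 gene, so they do not describe the GluN2 group. No protein sequence was used here.

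The levels are log2 CPM as deposited, and they are not simply read counts scaled to library size. In pools VP2.2 and VP2.6, read numbers could be worked out from the exact TRAP minus INPUT differences. Set against the deposited levels, they gave effective library sizes of about 12.9 M for both TRAP libraries, and of 39.1 M and 25.7 M for INPUT. These sizes carry the scaling of the levels and are not totals of reads. The depth of the other pools is unknown. In TRAP VP2.2, Grin2b had 6778 reads where its level stands for 4148, and Grin1 had 109 where its level stands for 165. The libraries of a pool also deviated from their fraction means in opposite directions over genes (correlations of -0.75 to -0.50). The values thus look as if differences between pools had been taken out gene by gene before deposit, a step that is not given in the sources used here. Levels, SDs, overlaps, orders and shares below describe this scale, on which the spread between pools may be too small and p-values without the pool as a block too low. TRAP VP2.11 was the library least like the others of its fraction, with a correlation over genes of 0.939 with their mean against 0.972 to 0.976 for the other TRAP libraries. Slc17a6, which encodes vGluT2, stood at 143 ± 13.6 CPM in TRAP and 25.9 ± 10.3 CPM in INPUT (mean ± SD, n = 4), a log2 fold change of 2.55 (SE 0.25, limma adjusted p = 8.8e-05). Slc32a1, the vesicular GABA transporter, differed by -1.26 (SE 0.26, limma adjusted p = 0.0027), and the astrocyte gene Gfap by -1.65 (SE 0.27, limma adjusted p = 0.00082). The other GABAergic markers did not pass, with 0.30 for Gad1 (limma adjusted p = 0.39) and -0.05 for Gad2 (limma adjusted p = 0.90), and the summed GABAergic level overlapped between TRAP (918 to 1570 CPM) and INPUT (584 to 1390 CPM). Fewer cells of a type and less RNA per cell cannot be told apart in such pools.

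Between TRAP and INPUT, Grin1 and Grin2b were higher in TRAP in all 4 pools and passed the test, while Grin2a, Grin2d and Grin3a did not pass. The test was limma's moderated test on 4 TRAP and 4 INPUT libraries, with Benjamini-Hochberg adjustment over 14249 genes and a threshold of 0.05. It called 2 of the 5 subunit genes, both higher in TRAP, beside 47.9% of all genes tested (23.2% higher and 24.8% lower in TRAP). With the pool as a block the same 2 genes passed, beside 32.2% of all genes. A share of 2 in 5 is near this background, so the result is which subunits differed and by how much, and not that the family as a whole stood out.

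**Figure D1:**
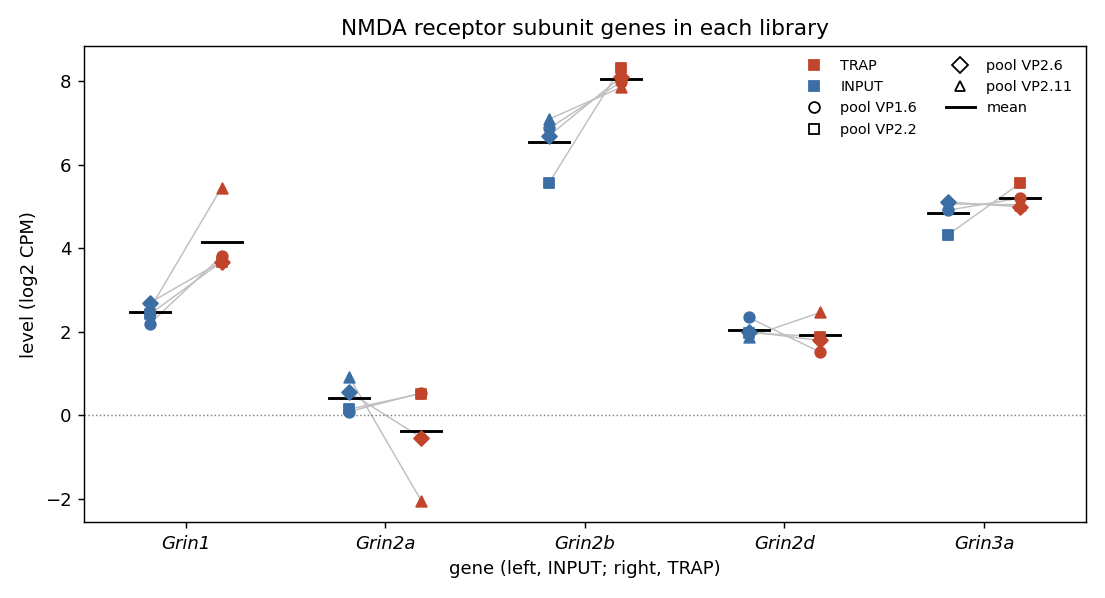
Level of each subunit gene in every library (y axis, log2 CPM, x axis, genes), with INPUT on the left in blue and TRAP on the right in red. Marker shapes give the pool, grey lines join the 2 libraries of a pool and black bars are means. The TRAP and INPUT points of Grin1 and Grin2b do not overlap, and those of Grin2a, Grin2d and Grin3a do.

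Grin1 encodes the obligatory subunit and lies on chr2:25291181-25319187 (ENSMUSG00000026959). Its level in TRAP was 3.80 log2 CPM in VP1.6, 3.67 in VP2.2, 3.68 in VP2.6 and 5.45 in VP2.11. In INPUT it was 2.19, 2.41, 2.69 and 2.54 log2 CPM in the same order. The fractions did not overlap, as was the case for 47.7% of all genes tested (23.3% with TRAP above and 24.4% with TRAP below), and the VP2.11 library stood well above the other TRAP libraries, which lay within a narrow band.

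In CPM, Grin1 averaged 20.8 ± 15.3 in TRAP and 5.54 ± 0.80 in INPUT (mean ± SD, n = 4). Its log2 fold change was 1.69 (SE 0.37, 95% interval 0.88 to 2.5, limma adjusted p = 0.0037), which is 3.23-fold. By pool the difference was 1.61, 1.26, 0.99 and 2.91, and without VP2.11 the log2 fold change was 1.29. Of the exon bases of Grin1, 13.5% are shared with the antisense gene Grin1os on the opposite strand, and since the strand setting of the counting is not given in the sources used here, reads there may belong to either gene or have been dropped.

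Grin2b had the highest level of the 5 genes in both fractions, per length as well as in CPM. It encodes GluN2B, the GluN2 subunit that dominates the young forebrain, and lies on chr6:135713233-136173511 (ENSMUSG00000030209). In TRAP its level was 7.98 log2 CPM in VP1.6, 8.33 in VP2.2, 8.10 in VP2.6 and 7.85 in VP2.11. In INPUT it was 6.87, 5.56, 6.69 and 7.09 log2 CPM. On the deposited scale every TRAP library was above every INPUT library, and INPUT VP2.2 was the lowest of all. Both VP2.2 levels stand for fewer reads than were found, 1845.5 against 3015 in INPUT and 4148 against 6778 in TRAP. The place of either library among the pools thus depends on that scale.

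Grin2b averaged 269.5 ± 38.7 CPM in TRAP and 100.9 ± 38.3 CPM in INPUT (mean ± SD, n = 4), and its log2 fold change was 1.51 (SE 0.29, 95% interval 0.88 to 2.14, limma adjusted p = 0.0019), which is 2.85-fold. The pools ranged from 0.76 in VP2.11 to 2.77 in VP2.2, and without VP2.2 the log2 fold change was 1.09. In VP2.2, 6778 reads in TRAP and 3015 in INPUT gave a counting interval of 2.70 to 2.83, and in VP2.6, 3296 and 2471 reads gave 1.33 to 1.48. The intervals, which cover counting error only, did not overlap, so these pools differed by more than counting error. INPUT VP2.2 also had the lowest summed CPM of the INPUT libraries for glutamatergic, GABAergic, cholinergic and pan-neuronal markers (pan-neuronal 5480 against 7570 to 10600). TRAP VP2.2 had the lowest glutamatergic (189) and endothelial (43.3 CPM) sums of the TRAP libraries. Its astrocyte (253), oligodendrocyte (1630), oligodendrocyte precursor (63.7), microglial (31.8), GABAergic (1570), cholinergic (137) and striatal (380 CPM) sums were the highest. Its pan-neuronal sum (23900 CPM) was not extreme. GABAergic and cholinergic sums were thus lowest in INPUT and highest in TRAP in this pool. Such sums are of deposited levels, so they need not show the make-up of a library. The part of both libraries in the Grin2b value was not tested.

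The Grin2b call depended on 1 setting. Grin2b has the longest exon set of the family (24842 bases as the union of its exons), and when a smooth trend of the fold change on exon length was taken out, its log2 fold change was 0.74 (limma adjusted p = 0.062, and 0.074 with the pool as a block). Grin1, with 9700 exon bases, kept a log2 fold change of 1.27 under the same setting (limma adjusted p = 0.019).

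Grin2a, the gene of the fast-closing GluN2A (chr16:9567898-9995560, ENSMUSG00000059003), was the lowest of the 5. Its TRAP levels were 0.53, 0.51, -0.54 and -2.05 log2 CPM (pools in the order used for Grin1), and its INPUT levels were 0.08, 0.14, 0.55 and 0.91 log2 CPM. The fractions overlapped, with TRAP above INPUT in 2 pools and below it in the other two. Means were 0.95 ± 0.59 CPM in TRAP and 1.38 ± 0.38 CPM in INPUT (n = 4). The log2 fold change was -0.81 (SE 0.59, limma adjusted p = 0.28), with a 95% interval of -2.11 to 0.50 that leaves both directions possible.

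The depth behind Grin2a was small. In VP2.6 it had 11 reads in TRAP and 48 in INPUT, with a counting interval for the log2 difference of -2.23 to -0.17 around -1.09. The mean also rested on VP2.11, the pool with the lowest TRAP value, without which it was -0.09.

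Grin2d, the gene of the slowest-closing GluN2D (chr7:45831883-45878378, ENSMUSG00000002771), lay at 1.51, 1.88, 1.79 and 2.46 log2 CPM in the TRAP libraries, in the same order of pools. INPUT stood at 2.34, 1.97, 2.00 and 1.87 log2 CPM. TRAP was above INPUT in VP2.11 only, and the fractions overlapped. Grin2d averaged 3.87 ± 1.15 CPM in TRAP and 4.16 ± 0.62 CPM in INPUT (n = 4), and its log2 fold change was -0.14 (SE 0.26, 95% interval -0.71 to 0.43, limma adjusted p = 0.68). Its 59 TRAP and 191 INPUT reads in VP2.2 gave a counting interval of -0.55 to 0.33, and its 44 and 102 reads in VP2.6 gave -0.77 to 0.30, so no difference was detectable at this depth in either pool. Of its exon bases, 9.66% are shared with the antisense gene Gm45441.

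Grin3a encodes the glycine-binding GluN3A (chr4:49661611-49845744, ENSMUSG00000039579). In TRAP it was at 5.20, 5.55, 4.99 and 5.04 log2 CPM in that order, and in INPUT at 4.91, 4.32, 5.10 and 5.06 log2 CPM. The fractions overlapped, and VP2.2 held both the highest and the lowest value. Means were 37.1 ± 6.89 CPM in TRAP and 29.5 ± 6.56 CPM in INPUT (n = 4). The log2 fold change was 0.35 (SE 0.20, 95% interval -0.10 to 0.79, limma adjusted p = 0.18).

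The difference of Grin3a was 1.23 in VP2.2, 0.29 in VP1.6, -0.11 in VP2.6 and -0.02 in VP2.11, and without VP2.2 the mean was 0.05. In VP2.2, 639 TRAP and 824 INPUT reads gave a counting interval of 1.08 to 1.38, and in VP2.6, 429 and 922 reads gave -0.28 to 0.05. As for Grin2b, these pools differed by more than counting error. Grin3b, the other GluN3 gene, had no row and was not analysed here.

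**Figure D2:**
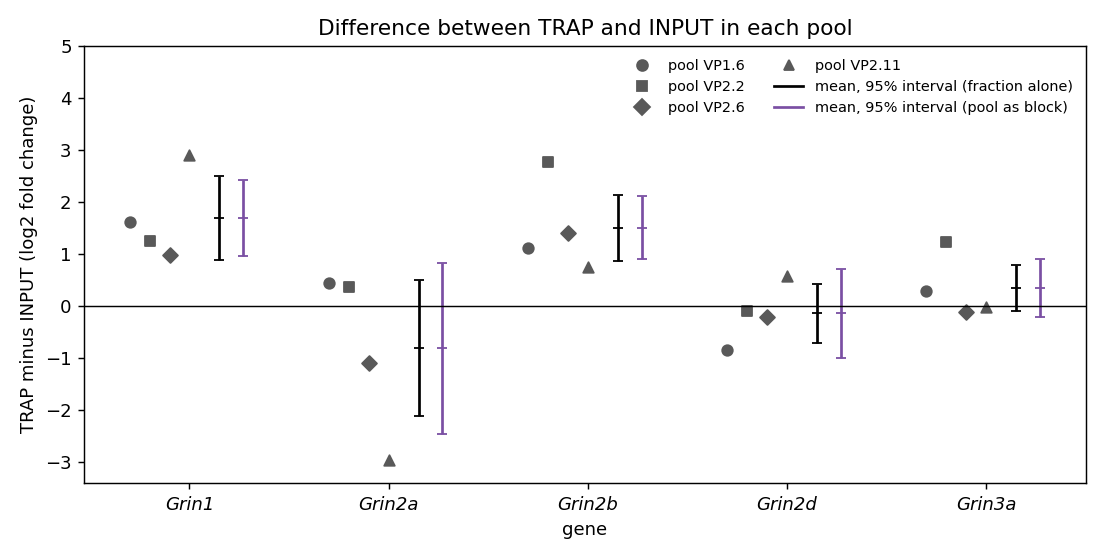
TRAP minus INPUT (y axis, log2 fold change) for each gene (x axis), with 1 marker per pool and the mean with its 95% interval from limma, in black with fraction alone and in purple with the pool as a block. Both intervals of Grin1 and Grin2b lie above 0, and those of Grin2a, Grin2d and Grin3a include 0.

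Levels of different genes were compared per kilobase of exon. In TRAP the order was Grin2b with 10.8 ± 1.56 CPM per kb, Grin3a with 3.02 ± 0.56, Grin1 with 2.15 ± 1.58, Grin2d with 0.581 ± 0.172 and Grin2a with 0.0530 ± 0.0329 (mean ± SD, n = 4). Grin2b exceeded Grin3a by 1.85 ± 0.16 on the log2 scale (mean ± SD) and did so in 4 of 4 libraries. Grin3a and Grin1 were not separated, with a log2 difference of 0.71 ± 1.00 and Grin1 higher in VP2.11. Grin1 exceeded Grin2d by 1.70 ± 0.54 and Grin2d exceeded Grin2a by 3.72 ± 1.58, each in 4 of 4 libraries.

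In INPUT the order was Grin2b with 4.06 ± 1.54 CPM per kb, Grin3a with 2.40 ± 0.54, Grin2d with 0.625 ± 0.093, Grin1 with 0.571 ± 0.082 and Grin2a with 0.0767 ± 0.0212. Grin2b was 0.69 ± 0.37 above Grin3a on the log2 scale, in 4 of 4 libraries. Grin2d and Grin1 were not separated (0.13 ± 0.39, Grin2d higher in 2 of 4 libraries). Per kilobase of coding sequence Grin1 stood above Grin2d in all 4 INPUT libraries, by 0.88 ± 0.39. The level of Grin1, which every receptor needs, was thus below that of Grin2b in every library by either length, and the part of the exon bases shared with Grin1os in this was not tested.

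Within the GluN2 genes measured, Grin2b made up a larger share in TRAP than in INPUT, and Grin2d and Grin2a smaller ones. Each share is the level per exon length over the sum for Grin2a, Grin2b and Grin2d, and Grin2c is not in the sum. Grin2b was 95.2%, 95.3%, 95.2% and 91.7% of this sum in TRAP, with the pools again in the order used for Grin1, and 85.2%, 74.5%, 85.9% and 89.4% in INPUT. TRAP was higher in each pool, and the narrowest gap was in VP2.11.

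The mean Grin2b share was 94.4 ± 1.78% in TRAP and 83.7 ± 6.40% in INPUT (mean ± SD, n = 4), a difference of 10.6 percentage points (exact two-sided permutation test, p = 0.029, adjusted p = 0.036 over 5 shares and ratios). The Grin2d share was 5.18 ± 2.00% in TRAP and 14.5 ± 6.03% in INPUT, with the same exact p. It ran from 4.00% to 8.16% in TRAP and from 8.94% to 23.1% in INPUT, so that the fractions did not overlap. Grin2a took 0.452 ± 0.275% in TRAP and 1.72 ± 0.55% in INPUT, again with the same exact p. Since the shares add up to the whole, these are not independent results.

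The value 0.029 is the smallest that the permutation test can give with 4 against 4 libraries, and an exact sign flip within pools, which respects the pairing, gave p = 0.125 for each share, the smallest that 4 pools can give. Without VP2.2, whose INPUT was the most extreme on the deposited scale, the Grin2d difference moved from -9.37 to -6.16 percentage points. The Grin2b difference moved from 10.6 to 7.24. With read numbers in place of the deposited levels, which could be done for all 3 genes in VP2.6 alone, the Grin2b share was 94.8% in TRAP and 84.7% in INPUT. In INPUT VP2.2, Grin2b had 3015 reads where its level stands for 1845.5, and Grin2d 191 where its level stands for 153. In TRAP VP2.2 the numbers were 6778 against 4148 and 59 against 47.5. In both libraries Grin2b was thus lower against Grin2d by level than by reads. The size of the shares depended on the length used: per coding length Grin2b was 98.0 ± 0.50% in TRAP and 93.6 ± 2.76% in INPUT.

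**Figure D3:**
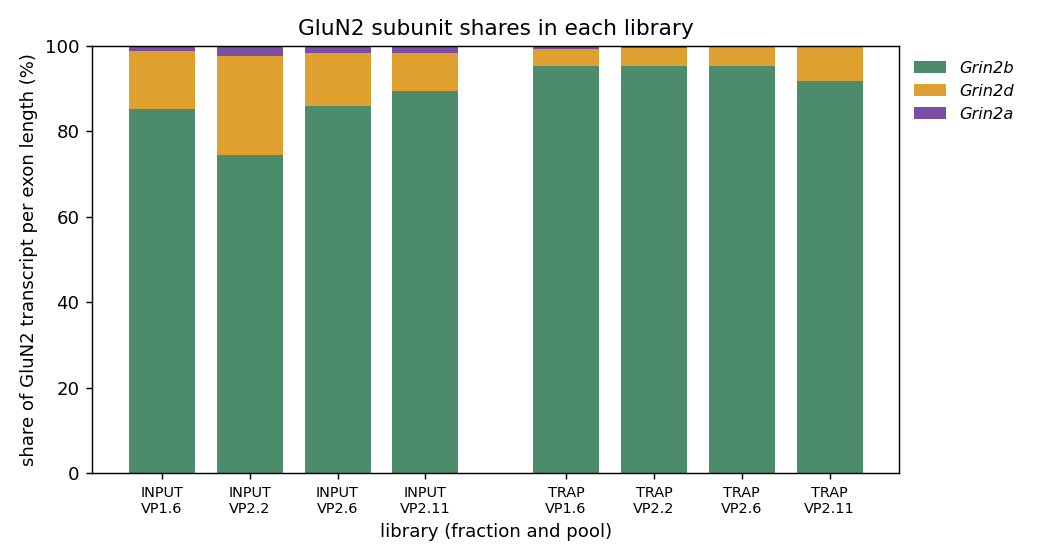
Share of each GluN2 gene in the summed GluN2 level per exon length (y axis, %) in each library (x axis, fraction and pool), as stacked bars of Grin2b, Grin2d and Grin2a. Grin2b fills 91.7% to 95.3% of the TRAP bars and 74.5% to 89.4% of the INPUT bars.

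Against the summed GluN2 level, Grin3a was lower in TRAP and Grin1 was not separated. Grin2b made up most of this sum in every library, so the Grin3a ratio is not independent of the Grin2b values. The level of Grin3a itself did not pass. The log2 ratio of Grin3a to the GluN2 sum per exon length was -1.94 ± 0.16 in TRAP and -0.95 ± 0.27 in INPUT, lower in TRAP in all 4 pools (exact permutation p = 0.029, adjusted p = 0.036, sign flip p = 0.125). The ratio of Grin1 to the sum was -2.64 ± 1.00 in TRAP and -3.0 ± 0.60 in INPUT (exact permutation p = 0.66), higher in TRAP in 2 of 4 pools. Without VP2.11 its difference turned from 0.36 to -0.25.

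The ratios between pairs of genes test whether the subunits changed differently, free of library scaling. The length of each gene cancels in them, but a trend of the fold change on length does not. With that trend taken out, the log2 fold change of Grin2b went from 1.51 to 0.74, that of Grin1 from 1.69 to 1.27, that of Grin2d from -0.14 to -0.38 and that of Grin3a from 0.35 to -0.18. Of 10 pairs, 6 passed an exact two-sided permutation test at an adjusted p of 0.048 each (p = 0.029, the smallest possible), and none can pass with the sign flip within pools (p = 0.125 for each of the 6). The log2 ratio of Grin2b to Grin3a was 1.16 ± 0.42 higher in TRAP (mean ± SD over 4 pools) and that of Grin2b to Grin2d 1.65 ± 1.11 higher. Grin2a fell against Grin2b by 2.32 ± 1.26.

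Grin1 rose against Grin2a by 2.5 ± 2.3, against Grin2d by 1.83 ± 0.64 and against Grin3a by 1.35 ± 1.20, where the lowest pool was at 0.03. Without VP2.11 the first was 1.38 and the last 0.82. With 1 CPM added to each level, Grin1 against Grin3a no longer passed (exact permutation, adjusted p = 0.082), while Grin2a against Grin3a did (exact permutation, adjusted p = 0.048). The changes of Grin1 and Grin2b were not separated, with a difference of 0.18 ± 1.55 (exact permutation p = 0.74) and pools from -1.51 to 2.15. Nor were those of Grin2a and Grin2d (-0.67 ± 2.12, exact permutation p = 0.57), Grin2d and Grin3a (-0.48 ± 0.90, exact permutation p = 0.17) or Grin2a and Grin3a (-1.15 ± 1.29, exact permutation p = 0.057).

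**Figure D4:**
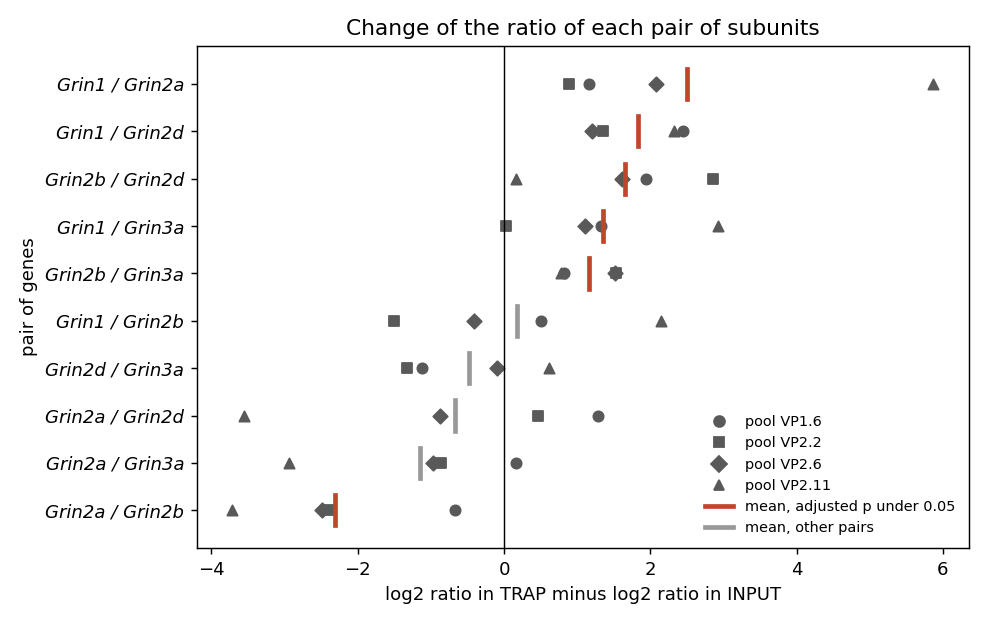
Change of the log2 ratio of each pair of subunit genes from INPUT to TRAP (x axis, log2) for the 10 pairs (y axis), with 1 marker per pool and a bar for the mean, red where the exact permutation test passed after adjustment over the pairs. The pools of Grin1 against Grin2b spread from -1.51 to 2.15, and those of Grin2b against Grin3a from 0.78 to 1.54.

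Genes that bind, move, modify or act downstream of the receptor were counted from 4 lists, with the median log2 fold change beside that of all genes tested (-0.05). Among the 15 scaffold and trafficking genes, 1 was higher and 5 were lower in TRAP (median -0.38), and 1 and 3 with the pool as a block. The shares of all genes were 23.2% higher and 24.8% lower, and 15.4% and 16.8% with the block. Dlg3, which encodes the scaffold SAP102, rose by 1.00 (SE 0.20, limma adjusted p = 0.0023). Dlg4, which encodes PSD-95, the main scaffold of the postsynaptic density, fell by 1.05 on the log2 scale, at 21 ± 2.66 CPM in TRAP and 43.6 ± 5.63 CPM in INPUT (limma adjusted p = 0.00045). Actn2, an actin crosslinker that binds GluN1, had a log2 fold change of -1.28 (SE 0.39), and Neto1, an auxiliary subunit, one of -0.97 (SE 0.25), lower in 3 of 4 pools. Dlg1 (-0.38, SE 0.25) and Dlg2 (-0.09, SE 0.27) did not pass. The count of 6 was 3 without VP1.6 and 3 without VP2.6.

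Of the 16 kinase and phosphatase genes, 7 were higher and 2 lower in TRAP (median 0.29), and 5 and 2 with the pool as a block, beside the same shares of all genes (23.2% higher and 24.8% lower, or 15.4% and 16.8%). Prkca, a protein kinase C gene, had a log2 fold change of 1.62 (SE 0.25). Camk2a, the alpha subunit of the calcium/calmodulin kinase that docks on GluN2B, rose from 421 ± 64.4 CPM in INPUT to 837 ± 60.1 CPM in TRAP (log2 fold change 1.00, SE 0.15). Ptpn5, the striatum-enriched tyrosine phosphatase STEP that acts on GluN2B, differed by -1.44 (SE 0.17), from 243 ± 51.8 CPM in INPUT to 88.9 ± 13.4 CPM in TRAP.

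Of the 14 downstream genes, 8 were higher in TRAP with fraction alone (median 0.55), beside 23.2% of all genes called higher. With the pool as a block 5 were called higher, beside 15.4%, and without VP1.6, VP2.6 or VP2.11 the count was 5. Nos1, the neuronal nitric oxide synthase tethered to the receptor by PSD-95, rose from 63.1 ± 14.2 to 147 ± 8.41 CPM (log2 fold change 1.25, SE 0.17). Rasgrf2, a Ras exchange factor, differed by 1.23 (SE 0.23), Tiam1, a Rac exchange factor, by 1.01 (SE 0.20) and the transcription factor gene Creb1 by 0.77 (SE 0.14). Calm2, a calmodulin gene (0.02, SE 0.20), did not pass. With the trend on exon length taken out, 4 were called.

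Genes that supply the co-agonists glycine and D-serine were tested for 13 of 17 listed. Of these, 2 were higher and 6 lower in TRAP (median -0.79), and 2 and 5 with the pool as a block, beside 23.2% and 24.8% of all genes, or 15.4% and 16.8%. Lower were Slc6a20a, a proline and glycine transporter (-2.0, SE 0.39), Psat1 (-1.10, SE 0.16) and Psph (-0.91, SE 0.19), enzymes of serine synthesis, and Gcsh of the glycine cleavage system (-0.97, SE 0.23). The higher pair, named after their values were seen, were Shmt2, which interconverts serine and glycine (0.81, SE 0.17), and the serine transporter Slc1a4 (0.74, SE 0.16). Srr, serine racemase, which makes D-serine, differed by 0.31 (SE 0.13, limma adjusted p = 0.074).

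Grina, a gene named for a receptor-associated protein that is not a channel subunit, had a log2 fold change of 0.49 (SE 0.14, limma adjusted p = 0.016, and 0.099 with the pool as a block).

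**Figure D5:**
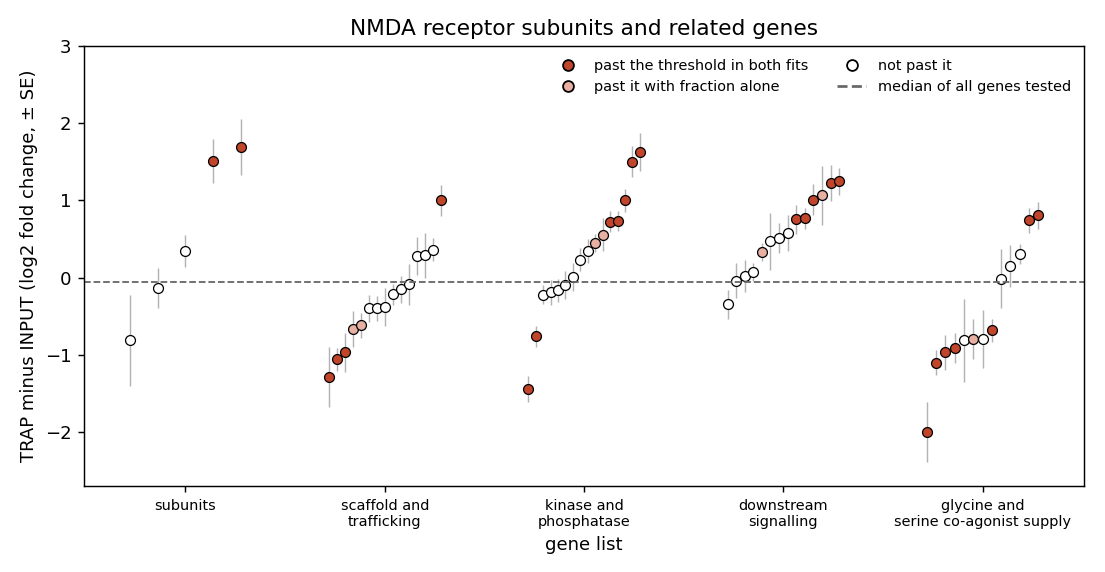
TRAP minus INPUT (y axis, log2 fold change ± SE) of each gene of the subunits and of the 4 lists (x axis), with filled red points for genes past the threshold in both limma fits, pale points for those past it with fraction alone and open points for the rest. The dashed line is the median of all genes tested, -0.05. Red points lie above the line in the downstream list and on both sides of it in the other 3 lists.

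Many markers of other cell types also differed between TRAP and INPUT. The summed level of 5 astrocyte genes was 150 to 253 CPM in TRAP and 343 to 502 CPM in INPUT, with 4 of 5 lower in TRAP. For 5 oligodendrocyte genes it was 900 to 1630 CPM in TRAP and 3510 to 3810 CPM in INPUT, with 4 of 5 lower and Mag 0.61 higher. For 6 genes of striatal medium spiny neurons it was 265 to 380 CPM in TRAP and 556 to 772 CPM in INPUT, with 5 of 6 lower. By the fit with fraction alone, microglial genes were lower in 5 of 5 and oligodendrocyte precursor genes in 3 of 5 with 1 higher, and 1 of 4 endothelial genes was higher. GABAergic genes were lower in 1 of 3 and cholinergic genes in 1 of 3 with 1 higher. The cholinergic sum was 87.8 to 137 CPM in TRAP and 39.4 to 84.1 CPM in INPUT. The glutamatergic sum was 189 to 216 CPM in TRAP and 32.2 to 70.8 CPM in INPUT, with 2 of 3 higher. Pan-neuronal genes were higher in 5 of 5. All these counts are from the fit with fraction alone, beside 23.2% of all genes higher and 24.8% lower. With the pool as a block, microglial genes were lower in 3 of 5 and pan-neuronal genes higher in 4 of 5. No oligodendrocyte or cholinergic gene was then called higher. The other counts stayed the same, beside 15.4% of all genes higher and 16.8% lower. None of these lists was at 0 in either fraction. Their part in the values of the subunit genes, of Ptpn5 and of the serine and glycine genes was not tested.

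The genes whose pattern over the 8 libraries was most like each subunit were found by the root mean square (RMS) difference of log2 CPM, each gene centred on its own mean, among 14244 other genes. For Grin1 they were Nkapl (RMS 0.10), Rspo3 (0.12) and Ccer2 (0.12), beside a median of 1.08. Nedd4 (0.05), Exosc9 (0.11) and Mycbp2 (0.12) were nearest to Grin2b, with a median of 0.96. Grin3a was nearest to Cnr1 (0.05), Klhl32 (0.05) and Tbc1d9 (0.06), with a median of 0.54. Grin2a was nearest to Htr1a (0.18), Zfp874a (0.20) and C530050E15Rik (0.22), and Grin2d to Tbkbp1, Irf2bpl and Mapk7 (each 0.08). Among the subunits themselves the closest pair was Grin2d and Grin3a (0.47) and the farthest Grin1 and Grin2a (1.77). With so many genes and 8 libraries, near matches are a description only.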

How the data were processed

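RNA of TRAP and INPUT fractions from 4 pools of VP was sequenced. As the study's methods and the labels state, the authors aligned reads with STAR 2.5.1a to Ensembl release 76, counted unique reads per gene with featureCounts 1.4.6-p5, scaled libraries by TMM in edgeR and analysed them with limma. The deposited values are log2 CPM per library. The deposited transcript count per gene was used only to compare the table with GENCODE M21, whose number it equalled for 14353 of 14353 genes. This match does not show which gene models the reads were counted on. The lengths and shared exon bases given here are those of M21 and may differ from those behind the counts. Deposited columns of fold changes and p-values were not used. Of 14398 rows, 45 repeats were left out.

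The 14249 genes with 3 or more libraries above 1 CPM were fitted with limma 3.58.1 (R 4.3.3), unweighted and with fraction alone, and with the pool as a block as an alternative. The authors instead fitted counts with limma's voom and quality weights, and the design formula is not given in the sources used here. Array weights on the deposited values, the nearest setting, called 8645 genes against 6830. Shares, ratios and pairs were tested with exact permutations in scipy 1.17.1. The pairing comes from the labels, since both fractions of a pool share their animals. Deviations from the fraction means correlated at -0.75 to -0.50 within pools and at 0.05 to 0.44 between pools. Libraries of a pool thus deviated in opposite directions, so the SD over libraries may understate the spread between pools, and p-values without the block may be too small. INPUT VP1.6 and both libraries of VP2.11 hold values rounded to 3 significant digits. Whole reads were worked out in VP2.2 and VP2.6 from the differences (95.8% and 97.8% of genes within 2e-09 on the log2 scale), and levels need not match them: Grin2b had 6778 reads in TRAP VP2.2 where its deposited level stands for 4148. Length is the union of exons in GENCODE M21, or the longest coding sequence where stated.

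The subunits and the gene lists were chosen with earlier results of these data known. Named genes are every subunit, up to 4 genes per list that passed both fits in 1 direction with the largest changes, Grina, the 3 most similar genes per subunit, and the markers Slc17a6, Slc32a1 and Gfap, and a few more, chosen after their values were seen. The alternatives tried were array weights, the filter on low values, log2(CPM + 1), 1 CPM added in shares and pairs, coding length or no length, 2 other scalings, no variance trend, the exon length trend, and each pool left out. Some named genes and sequences are not reported here. The scripts were tested on simulated data.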

Additional observations from a re-analysis of the deposited data

Results flagged for a closer look

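In 3 of 25 groups of 4 values tested, 1 library stood apart from the rest by Dixon's ratio, where chance gives about 1 in 20 (1.25 of 25), and all 3 were TRAP VP2.11. Grin1 stood at 5.45 log2 CPM there, against 3.67 to 3.80 in the other TRAP libraries. The Grin2b share of the GluN2 sum was 91.7% against 95.2% to 95.3%, and the Grin2d share was 8.16% against 4.00% to 4.48%. The last pair is 1 pattern, since the shares add up to the whole. The same library had the lowest Grin2a level and the highest summed level of endothelial markers (112 CPM against 43.3 to 80.3 in the other TRAP libraries). It also had the lowest TRAP sums of pan-neuronal (19000 CPM against 23900 to 27500), oligodendrocyte (900 against 1090 to 1630) and cholinergic markers (87.8 against 93.4 to 137). The part of this library in these values was not tested.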

How the results depend on the processing

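Grin1 kept its direction and its call in all 19 alternatives (log2 fold change 1.27 to 1.93). Grin2b kept its direction in 19 and its call in all but the 2 with the exon length trend taken out (0.74, limma adjusted p = 0.062, and 0.074 with the pool as a block), where 1 subunit was called in place of 2. Over the pools left out, Grin1 ran from 1.29 to 1.93, Grin2b from 1.09 to 1.76, Grin2a from -1.22 to -0.09, Grin2d from -0.38 to 0.10 and Grin3a from 0.05 to 0.50, the same with and without the block. The signs of values that did not pass turned for Grin2a (0.19) and Grin2d (0.15) under quantile normalization, for Grin2d without VP1.6 (0.10), and for Grin3a with the length trend taken out (-0.18, with and without the block). The cause was not tested. Grin2a was not tested when over 1 CPM was asked of all 8 libraries.

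Over all genes 6830 were called. The replicate block gave 4592, a change of under 1.5 times, and 3697 with the length trend taken out. A log2 fold change of at least 1 left 3528. With a pool left out the counts were 4862 to 6894, and 3232 to 4156 with the block, where fewer samples are fitted. The block changed the call of no subunit, took Grina from 1 call to 0, and took the downstream list from 8 to 5, and to 4 with the length trend out (2 with both). With the block and the length trend taken out, the kinase list gave 5 and the co-agonist list 5. Array weights gave 10 scaffold genes. With a pool left out, the scaffold list gave 3 to 7, the kinase list 8 to 10 (4 to 7 with the block), the downstream list 5 to 8 (3 to 4), the co-agonist list 7 to 8 (2 to 6) and Grina 0 to 1. The fits of the block with the length trend taken out, or with a pool left out, were chosen after seeing the data.

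Shares and pairs kept their direction where they had passed. With 1 CPM added, 6 pairs passed as before, but Grin1 with Grin3a (1.20, exact permutation, adjusted p = 0.082) gave way to Grin2a with Grin3a (-0.66, exact permutation, adjusted p = 0.048). The sign flip within pools (replicate block) gave an adjusted p of 0.16 for the Grin2a (-1.26), Grin2b (10.6) and Grin2d (-9.37) share differences in percentage points and for the Grin3a ratio (-0.99), and 0 of the pairs. It cannot go below 0.125, nor can 3 against 3 go below 0.1, so neither says anything about stability. With a pool left out the differences ran from -1.58 to -1.08 for Grin2a, 7.24 to 13.4 for Grin2b, -12.2 to -6.16 for Grin2d, -1.10 to -0.86 for the Grin3a ratio and -0.25 to 0.86 for the Grin1 ratio, which turned without VP2.11, as did the pairs Grin1 with Grin2b (-0.47 to 0.75) and Grin2a with Grin2d (-1.32 to 0.29), and 0 pairs passed. Without VP2.11, Grin1 with Grin2a went from 2.5 to 1.38 and Grin1 with Grin3a from 1.35 to 0.82. Read numbers are known for VP2.2 and VP2.6 only, where Grin2d had 44 to 191 reads per library.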
